A study of Mus musculus with 6 samples.

Results

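The carboxylesterases described here are the 10 mouse genes Ces1c, Ces1d, Ces1e, Ces1f, Ces1g, Ces2a, Ces2c, Ces2e, Ces3a and Ces3b. They were found by their symbols in the deposited count table, where all 10 were among the 20140 genes listed and all 10 passed the filter on low counts that left 16370 genes for testing. The family was chosen by name and selected on the measured fall of Ces1f from control in these livers, so the values of Ces1f against control are given as a description with no test. The other 9 members were taken by family name, but with earlier results of these data known.

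Poly(A) RNA from whole livers was sequenced on day 21 in 3 groups of 2 samples. The control livers came from sham mice that received PBS. The intra-C and intra-S livers came from mice carrying CT26, a colorectal carcinoma line of BALB/c origin, and the labels give no more than these names. From the study's methods, intra-C was read as the orthotopic model, with CT26 cells placed in the cecum and no visible liver metastasis at this time, and intra-S as the intrasplenic model, in which cells are injected into the spleen and metastases grow in the liver. The methods give BALB/c mice, 6 to 10 weeks old at the start, for such models. No group carried an altered allele. Route, tumor site and tumor load differ with the group and cannot be told apart, and metastatic cells may be part of an intra-S sample. The labels do not say that the replicates were separate mice, so that p-values measure the spread between these samples.

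Carboxylesterases are serine hydrolases that cleave esters, amides and thioesters. In the liver they sit mostly in the lumen of the endoplasmic reticulum of hepatocytes, where they activate or clear ester drugs and pesticides and release fatty acids from stored triacylglycerol and cholesteryl esters for VLDL assembly. In rodents the family has expanded by tandem duplication. In the GENCODE annotation of GRCm38, the mm10 build used for alignment, all 10 members lie on chromosome 8 in separate blocks. The 5 Ces1 members run along the minus strand in a block of 238 kb (chr8:93099015-93337308). The 5 Ces2 and Ces3 members run along the plus strand in a block of 360 kb (chr8:104734003-105093929), 11397 kb further on. The Ces1 genes span 23.5 to 34.9 kb, with 13 or 14 exons in the transcript used here, and the Ces2 and Ces3 genes 7.4 to 10.2 kb with 12 or 13.

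The ends of the coding sequences are shown because they separate the most abundant member, Ces1c, from most of the others. Many carboxylesterases end in an HXEL signal that holds them in the endoplasmic reticulum, and mouse Ces1c is known as a secreted esterase of blood plasma. Each line gives the last bases of the longest complete coding sequence in GENCODE, 5′ to 3′, with the last 4 codons before the stop in capitals.
Ces1c: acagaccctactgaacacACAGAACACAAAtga
Ces1d: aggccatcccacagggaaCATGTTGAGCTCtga
Ces1e: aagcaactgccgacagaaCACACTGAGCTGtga
Ces1f: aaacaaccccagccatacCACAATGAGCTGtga
Ces1g: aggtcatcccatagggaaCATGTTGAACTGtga
Ces2a: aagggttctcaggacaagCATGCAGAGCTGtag
Ces2c: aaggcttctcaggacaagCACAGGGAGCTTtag
Ces2e: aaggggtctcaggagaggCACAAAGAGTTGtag
Ces3a: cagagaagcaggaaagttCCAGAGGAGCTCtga
Ces3b: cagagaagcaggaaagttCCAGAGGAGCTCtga
The codons of HXEL close 7 of the 10 coding sequences. Ces1c does not carry them, and neither do Ces3a and Ces3b, whose printed ends are the same in every base. The coding sequences are alike in length, from 554 codons in Ces1c to 571 in Ces3a and Ces3b.

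Because the members are close relatives, the stretches of 100 bases that a member's transcript shares with any other annotated gene were counted. Ces1d, Ces1e, Ces1f, Ces1g and Ces2e shared none. Ces1c shared 1.39% of its stretches with Ces1b. Ces3a shared 9.09% and Ces3b 7.68% with each other, Ces2a shared 10.7% with the gene model Gm7208, and Ces2c shared 16% with other gene models, among them the pseudogene Ces2d-ps. Reads that lie wholly within shared stretches cannot be placed uniquely. The counts of Ces2a, Ces2c, Ces3a and Ces3b may thus lean on the rest of each transcript and are less certain. How many reads were affected was not tested.

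Each liver gave between 32838321 and 43368309 counts on genes. Levels between livers are given as CPM, each gene's share of the counts of a liver scaled by edgeR's TMM factors (0.884 to 1.14), and the upper limit of a gene with no count, taken as 3 counts, is 0.0679 to 0.0928 CPM depending on the liver. Levels between genes are compared as TPM, which accounts for transcript length. Of 10 hepatocyte markers, 9 were in the table and none of these was at 0. Their summed level ran from 116414 to 123797 CPM in control, 112750 to 156029 in intra-C and 138147 to 189328 in intra-S livers. No exocrine pancreas marker passed the filter.

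In control livers the family was led by Ces1c, at 3689 ± 337 TPM (mean ± SD, n = 2), and Ces1d, at 1478 ± 275 TPM. Ces3a (457 ± 14.4 TPM), Ces2a (456 ± 6.23), Ces1f (412 ± 11.5) and Ces1g (403 ± 55.4) followed, and within this foursome the means lay within 1 SD of Ces1g of each other. Ces1e was at 174 ± 22.7, Ces3b at 138 ± 42.6 and Ces2e at 97.9 ± 14.8 TPM, and here neighbours lay within the larger SD of the pair. Ces2c was lowest by far at 4.22 ± 0.717 TPM. Ces1c and Ces1d were the most abundant members and Ces2c the least abundant in all 3 groups, while Ces1f fell from place 5 in control livers to place 9 in intra-C and place 8 in intra-S livers.

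**Figure D1:**
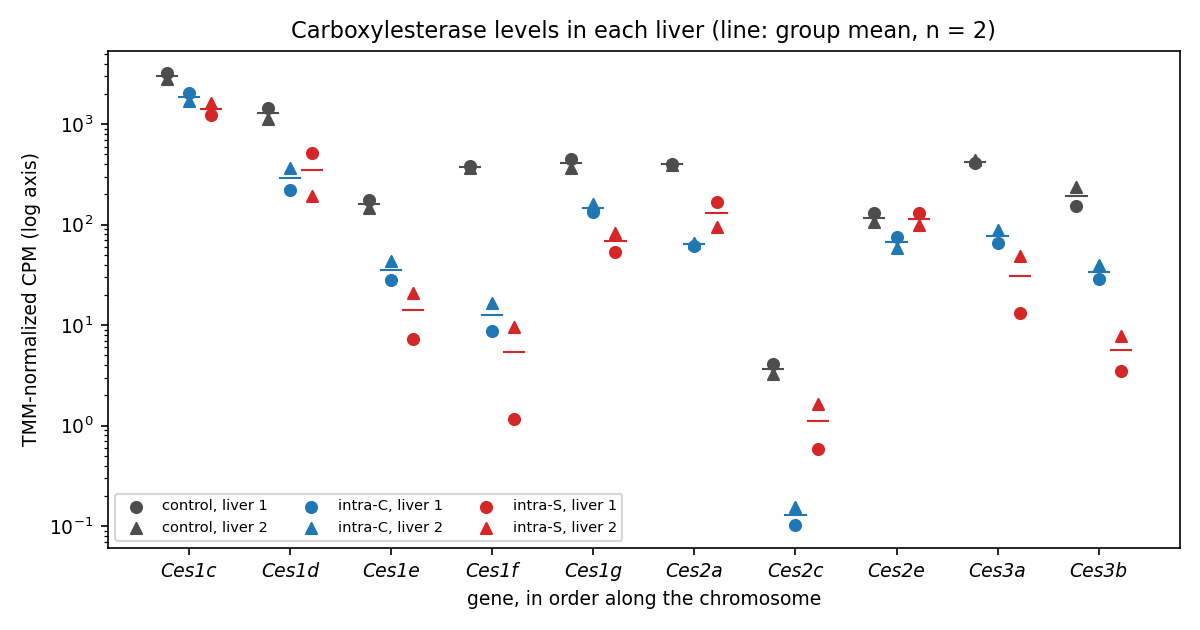
TMM-normalized CPM of each carboxylesterase in each of the 6 livers on a log axis, with genes in their order along the chromosome, circles for liver 1 and triangles for liver 2 of each group and lines at the group means. All tumor-bearing livers lie below both control livers, except for Ces2e in the intra-S livers, and Ces1f drops from 369 or more to 16.7 CPM or less.

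The first question was how the family differs between intra-C and control livers. In bulk tissue, fewer cells of a type and less RNA per cell cannot be told apart. Leaving aside Ces1f, whose fall chose the family, all 9 other members were lower in both intra-C livers than in either control liver, with a median log2 fold change of −2.18, against 0.01 over all genes tested (−2.33 with Ces1f). Of the 9 members with a test, 4 were called lower by edgeR's quasi-likelihood test (adjusted p under 0.05 over all genes), namely Ces1g, Ces2a, Ces2c and Ces3b, and 5 were not called. In the background, 2.38% of the genes tested were called lower and 4.92% higher, and both intra-C livers were below both control livers for 34.0% of the genes. These shares are printed for scale, since the members were picked with this contrast known. All 9 had an unadjusted p under 0.05, as did 1935 lower and 2493 higher genes of the 16370 tested. The calls in this comparison fell to 0 when any of its 4 livers was left out, where 0% (without a control liver), 0.017% and 0.0227% (without intra-C liver 1 or 2) of all genes were called lower, and rose to 9 when either intra-S liver was left out of the shared estimate of the spread, where 12% of all genes were called lower.

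The second question was how the family differs between intra-S and control livers, which are the same control livers as above. Of the 9 members with a test, 6 were called lower (Ces1c, Ces1e, Ces1g, Ces2a, Ces3a and Ces3b), 3 were not called (Ces1d, Ces2c and Ces2e) and none was higher. Here 3.95% of all genes tested were called lower and 6.78% higher, and 30.0% were lower with no overlap. The median log2 fold change was −1.87 over the 9 members other than Ces1f (−2.23 with it) and 0.04 over all genes, and 8 of the 9 did not overlap the control livers. The count fell to 0 without either control liver, when no gene of the whole table was called either, and to 3 without intra-C liver 1 or 2, when 0.954% and 0.817% of all genes were called lower. It was 2 when the fit held only the control and intra-S livers (0.734% of all genes), and 7 and 8 without intra-S liver 1 or 2 (6.93% and 15.4%).

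**Figure D2:**
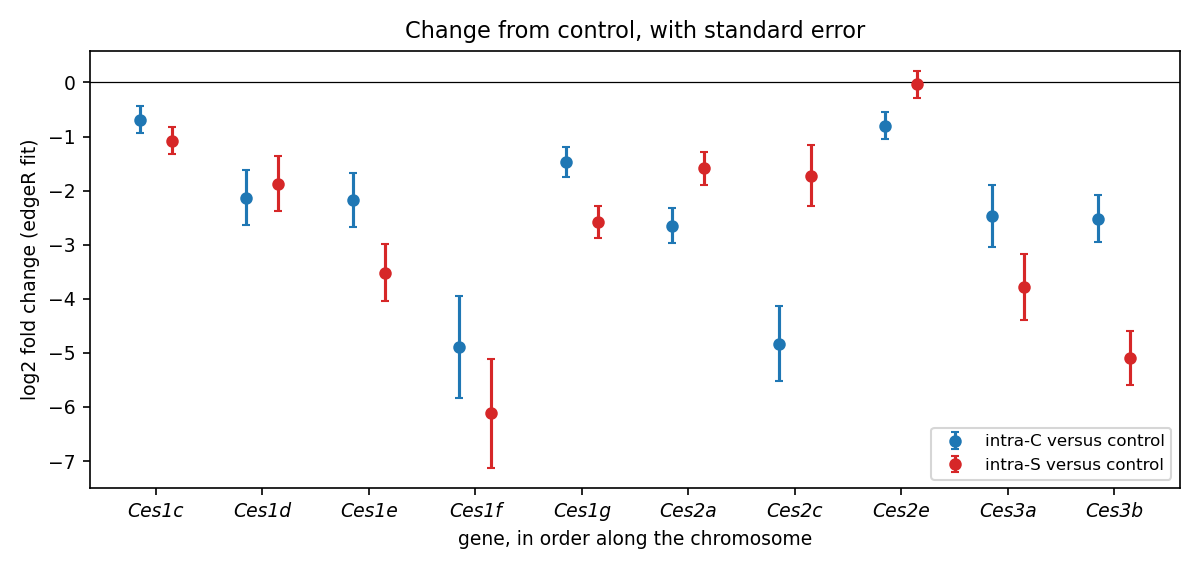
Fitted log2 fold change from control with its standard error (edgeR) for intra-C (blue) and intra-S (red) livers, genes in their order along the chromosome. Every fitted value is below 0, from −0.69 (Ces1c) to −4.89 (Ces1f) in intra-C and from −0.03 (Ces2e) to −6.12 (Ces1f) in intra-S livers.

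Ces1f, also known as TGH-2, is a lipase linked to the turnover of hepatic lipid droplets and is the member the family was chosen for. It stood at 383 and 369 CPM in the control livers, 8.73 and 16.7 in the intra-C livers, and 1.17 and 9.59 in the intra-S livers. The control livers were nearly equal, all 4 tumor-bearing livers were far below them, and the intra-S livers straddled the lower intra-C liver. Group means were 29.6-fold below control in intra-C livers, a log2 fold change of −4.89 ± 0.95 (SE), and the log2 fold change was −6.12 in intra-S livers. The intra-S value was set in part by liver 1, which held 40 counts of Ces1f against 391 in liver 2. It was −5.29 without liver 1 and −8.33 without liver 2.

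Ces1c, the plasma esterase, had the mildest relative decrease of the Ces1 members. It was at 3210 and 2827 CPM in control, 2069 and 1685 in intra-C, and 1246 and 1614 in intra-S livers. No tumor-bearing liver reached a control liver, but the group means differed by only 1.61-fold in intra-C and 2.11-fold in intra-S livers. The log2 fold change was −0.69 ± 0.24 (SE, edgeR adjusted p = 0.137) in intra-C and −1.08 ± 0.25 (adjusted p = 0.0431) in intra-S livers, where it fell.

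Ces1d is the triacylglycerol hydrolase TGH, which supplies lipid for VLDL assembly. It was at 1460 and 1124 CPM in control, 222 and 367 in intra-C, and 515 and 191 in intra-S livers. All tumor-bearing livers were below control, by 4.39-fold and 3.66-fold at the group means, and neither difference was called (log2 fold change −2.13 ± 0.51, edgeR adjusted p = 0.0577, and −1.87 ± 0.51, adjusted p = 0.0637). The intra-S livers were 2.7-fold apart. Without intra-S liver 1 the log2 fold change of Ces1d in intra-S livers was −2.76 (adjusted p = 0.00295).

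Ces1e, or egasyn, binds β-glucuronidase and keeps part of that enzyme in the endoplasmic reticulum. It was at 176 and 147 CPM in control, 27.9 and 43.3 in intra-C, and 7.35 and 20.7 in intra-S livers. The 3 groups did not overlap. The log2 fold change was −2.18 ± 0.50 in intra-C (edgeR adjusted p = 0.0510, not called) and −3.52 ± 0.53 in intra-S livers (adjusted p = 0.0153). Without intra-S liver 2 the latter was −4.46. Gusb, which encodes β-glucuronidase, was at 21.4 and 22.6 CPM in control, 52.9 and 36.1 in intra-C, and 31.2 and 36.2 in intra-S livers. Its log2 fold changes of 1.02 and 0.62 were not called (adjusted p = 0.0547 and 0.141).

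Ces1g, which hydrolyses lipid esters and limits hepatic lipid stores, was at 449 and 371 CPM in control, 135 and 161 in intra-C, and 53.1 and 83.4 in intra-S livers. The groups were fully separated, in the order control, intra-C, intra-S. Ces1g fell in both comparisons, with log2 fold changes of −1.47 ± 0.28 (edgeR adjusted p = 0.0349) and −2.59 ± 0.29 (adjusted p = 0.00782).

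Ces2a hydrolyses triacylglycerol and diacylglycerol as well as ester drugs. It was at 401 and 395 CPM in control, 61.4 and 65.7 in intra-C, and 170 and 94.2 in intra-S livers. The intra-C livers were lowest and close together, and both intra-S livers lay between them and control. Ces2a fell by 2.65 ± 0.32 on the log2 scale in intra-C livers (edgeR adjusted p = 0.0112) and by 1.59 ± 0.31 in intra-S livers (adjusted p = 0.0283).

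Ces2c, known as an acylcarnitine hydrolase, was the rarest member. Its counts were 168 and 144 in control, 4 and 5 in intra-C, and 20 and 67 in intra-S livers, that is 4.14 and 3.26 CPM, 0.102 and 0.155 CPM, and 0.583 and 1.64 CPM. In intra-C livers it was just above the level that a count of 0 allows, and the groups did not overlap. The log2 fold change was −4.83 ± 0.70 in intra-C (edgeR adjusted p = 0.0176) and −1.72 ± 0.57 in intra-S livers (adjusted p = 0.103, not called). The intra-S value was −2.66 without intra-S liver 2 and was then called (edgeR adjusted p = 0.0104). On the log2(TPM + 1) scale, which compresses low values, the intra-C value was −2.20.

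Ces2e, known to hydrolyse pyrethroid insecticides, departed from this pattern in the intra-S livers. It was at 130 and 105 CPM in control, 76.1 and 59.0 in intra-C, and 132 and 98.3 in intra-S livers. The intra-C livers were below control, by a log2 fold change of −0.80 ± 0.25 that was not called (edgeR adjusted p = 0.106). The intra-S livers overlapped control, with a log2 fold change of −0.03 ± 0.25 (nominal 95% interval −0.52 to 0.46, edgeR adjusted p = 0.946).

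Ces3a and Ces3b are neighbours on the chromosome. Ces3a was at 415 and 435 CPM in control, 65.8 and 87.6 in intra-C, and 13.2 and 48.4 in intra-S livers. Ces3b was at 152 and 238 CPM in control, 28.6 and 39.5 in intra-C, and 3.53 and 7.87 in intra-S livers. Both genes separated the 3 groups in the same order, with the intra-S livers lowest. Ces3a had a log2 fold change of −2.47 ± 0.57 in intra-C (edgeR adjusted p = 0.0533, not called) and fell by 3.79 ± 0.61 in intra-S livers (adjusted p = 0.0177). Without intra-S liver 1 the latter was −3.13, and without liver 2 it was −5.01. Ces3b fell by 2.52 ± 0.44 in intra-C (adjusted p = 0.0284) and had a log2 fold change of −5.09 ± 0.50 in intra-S livers (adjusted p = 0.00598), or −5.79 without intra-S liver 2, where it fell too.

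Summed over the members, the family held 6781 and 6014 CPM in the control livers, 2695 and 2525 in the intra-C livers, and 2141 and 2169 in the intra-S livers. As a share of all counts this was 0.724% ± 0.0561 (SD, n = 2) in control, 0.246% ± 0.00325 in intra-C and 0.202% ± 0.0179 in intra-S livers. The groups did not overlap in this sum, and the intra-S livers, which differed by several-fold in single members, were close in the total. Ces1c made up most of what was left. It held 50.5% and 50.5% of the members' TPM in the control livers, 79.5% and 69.8% in the intra-C livers, and 61.0% and 77.2% in the intra-S livers. Without Ces1c the sum was 3571 and 3186 CPM in control, 626 and 840 in intra-C, and 896 and 555 in intra-S livers.

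**Figure D3:**
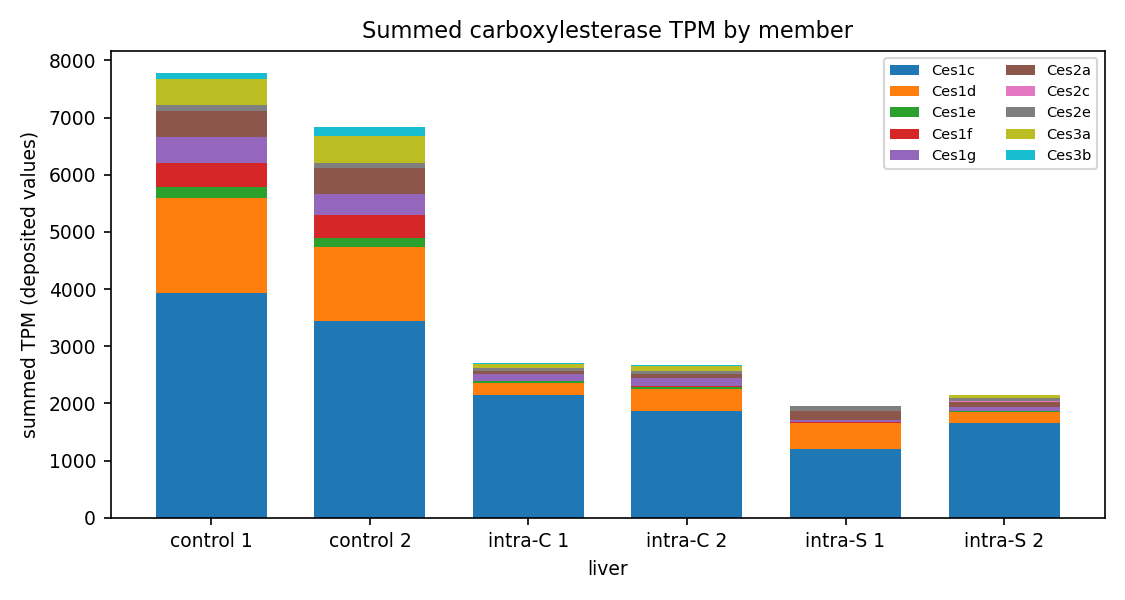
Deposited TPM of the 10 carboxylesterases stacked in each liver, with 1 color per gene and the bar height giving the summed TPM. The control bars reach 7779 and 6837 TPM and the 4 tumor-bearing bars 1961 to 2701 TPM, with Ces1c as the largest segment in every liver.

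Whether the intra-S livers differ from the intra-C livers was tested for all 10 members. The fall of Ces1f that chose the family was measured in these livers too, so its values in this comparison are a description. None of the 10 members was called by edgeR, and 0% of all genes tested were called in either direction (smallest adjusted p of any gene 0.113). At an unadjusted p under 0.05 there were 3 lower and 3 higher members, and 1049 lower and 1144 higher genes in all. The 3 Ces2 members were higher in both intra-S livers than in either intra-C liver. Their log2 differences were 1.06 ± 0.30 for Ces2a, 3.11 ± 0.68 for Ces2c and 0.77 ± 0.25 for Ces2e. Ces2g, a Ces2 gene outside the 10 members, went the other way (−0.34 ± 0.23, not called). It was at 32.2 and 39.2 CPM in intra-S against 50.7 and 39.8 in intra-C livers. Ces1c, Ces1e, Ces1g, Ces3a and Ces3b were lower with no overlap, with differences from −0.39 ± 0.24 (Ces1c, nominal 95% interval −0.87 to 0.09) to −2.58 ± 0.45 (Ces3b). Ces1d and Ces1f overlapped. Over all genes tested, 21.5% were lower and 21.8% higher in intra-S livers with no overlap. The adjusted p of the members ran from 0.285 to 0.833.

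**Figure D4:**
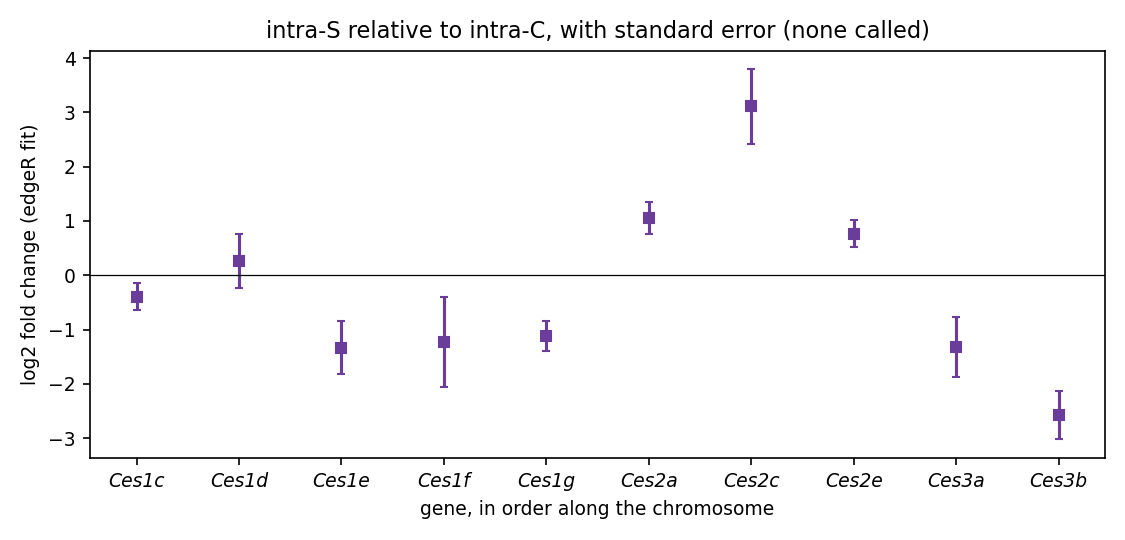
Fitted log2 fold change of intra-S relative to intra-C livers with its standard error (edgeR), genes in their order along the chromosome. The 3 Ces2 members lie above 0 and the Ces1 and Ces3 members, other than Ces1d at 0.26, lie below 0, with none past the adjusted threshold.

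This comparison rested on the intra-S livers, which were unlike each other. Intra-S liver 1 had the lowest level of all 6 livers for Ces1c, Ces1e, Ces1f, Ces1g, Ces3a and Ces3b, while it was above intra-S liver 2 for Ces1d, Ces2a and Ces2e. The ratio of the higher to the lower intra-S liver was 8.22 for Ces1f, 3.66 for Ces3a, 2.82 for Ces1e and 1.3 for Ces1c. In control livers this ratio ran from 1.02 (Ces2a) to 1.56 (Ces3b). Without intra-S liver 2, 5 members were called lower and 2 higher in intra-S than in intra-C livers, where 9.02% of all genes were called lower and 7.53% higher, and without liver 1 none was called. In that fit without liver 2, the log2 difference of Ces2c was 2.17 (edgeR adjusted p = 0.0507, not called), that of Ces1e −2.28, that of Ces1f −3.44, that of Ces3a −2.54 and that of Ces3b −3.27. Without liver 1, that of Ces1d was −0.63, that of Ces1f −0.40 and that of Ces3a −0.66. DESeq2 called 2 members lower and 1 higher with all livers in, and 1.35% and 1.16% of all genes.

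The summed hepatocyte markers, mostly Alb, were above both control livers in 3 of the 4 tumor-bearing livers and below both in intra-C liver 2. Both intra-C livers were above both control livers for 4 of the 9 markers tested (Apoa1, Cps1, Hnf4a and Tat) and below them for 3 (Ttr, Ass1 and Cyp2e1), beside 34.4% of all genes above and 34.0% below, and the median log2 fold change was 0.17. In intra-S livers 4 markers were above both control livers, 2 below and 3 overlapped, beside 30.4% and 30.0% of all genes above and below. Of the 9 markers, 0 were called lower in intra-C and 1 in intra-S livers, beside 2.38% and 3.95% of all genes. The called marker, Cyp2e1, had a log2 fold change of −1.67 (edgeR adjusted p = 0.0133). Set against the median of the hepatocyte markers in the same liver, the members had log2 differences from control of −0.82 (Ces1c) to −5.08 (Ces1f) in intra-C livers and −0.11 (Ces2e) to −6.85 (Ces1f) in intra-S livers. Markers of other cells moved with the groups. The sum of 8 neutrophil markers was 2.14 to 3.10 CPM in control, 257 to 562 in intra-C and 387 to 995 in intra-S livers. Since 3 of the 8 were at 0 in each control liver, and so passed the filter only through the tumor-bearing groups, no count of calls is given for this list. Kupffer cell markers were called higher for 6 of 6 genes in intra-C and 5 of 6 in intra-S livers. Over all genes, 4.92% and 6.78% were called higher. The Kupffer sum was 175 to 176 CPM in control, 807 to 967 in intra-C and 492 to 955 in intra-S livers. Proliferation markers were higher for 1 of 6 genes in intra-C and 5 of 6 in intra-S livers, where they summed to 68.1 to 81.6 CPM against 9.21 to 15.9 in control. Endothelial markers were called higher for 2 of 6 and 3 of 6 genes. Their sums were 83.9 to 93.8 CPM in control, 222 to 236 in intra-C and 194 to 333 in intra-S livers. Stellate and fibroblast markers were called higher for 0 of 6 and 2 of 6 (227 to 244, 260 to 276 and 368 to 404 CPM). The stellate and fibroblast median log2 fold changes were 0.23 and 0.99. Cholangiocyte markers were called higher for 0 of 5 and 1 of 5 (15.2 to 19.5, 65.4 to 98.5 and 23.6 to 185 CPM). Spp1 made up most of the cholangiocyte sum, and the median log2 fold change of its 5 markers was −0.65 in intra-C and 0.40 in intra-S livers. The 6 erythroid markers summed to 228 to 409 CPM in control, 258 to 408 in intra-C and 1195 to 1673 in intra-S livers. Of the 5 that were not at 0 throughout a group, 0 were called higher in intra-C and 5 in intra-S livers. The part of these other cells in the fall of the carboxylesterases was not tested.

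Of the 10 other mouse carboxylesterases, 7 were listed. None was called in either comparison with control among the 4 that were tested and not at 0 throughout a group. Ces1b, which lies beside Ces1c, was at 541 and 538 TPM in control livers, above every member except Ces1c and Ces1d. Its CPM was 482 and 481 in control, 320 and 323 in intra-C, and 228 and 390 in intra-S livers. All 4 tumor-bearing livers were lower, with log2 fold changes of −0.58 and −0.64 (edgeR adjusted p = 0.246 and 0.189). Ces2g was at 46.4 and 38.2 CPM in control, 50.7 and 39.8 in intra-C, and 32.2 and 39.2 in intra-S livers, which overlapped control in both comparisons (log2 fold changes 0.10 and −0.24). Ces2b had 20 and 12 counts in the control livers and 0 in all 4 tumor-bearing livers, at least 4.52-fold lower in intra-C and 4.75-fold lower in intra-S livers against a floor of 3 counts per liver. It passed the filter only through the control group, so no test is given for it.

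Among 14 other hydrolases of drugs, toxins and lipid amides (xenobiotic esterases and epoxide hydrolases), 6 were called lower in intra-C livers and 9 in intra-S livers, and none was higher, beside 2.38% and 3.95% of all genes called lower. The list was chosen with earlier results of these data known. The median log2 fold changes over the list were −0.96 and −1.05. Ephx1, the microsomal epoxide hydrolase, was at 329 and 262 CPM in control, 82.4 and 71.3 in intra-C, and 151 and 91.8 in intra-S livers. Ephx2, the soluble epoxide hydrolase, was at 445 and 409 CPM in control, 110 and 160 in intra-C, and 105 and 93.6 in intra-S livers. Both fell in both comparisons, Ephx1 with log2 fold changes of −1.94 and −1.28 and Ephx2 with −1.66 and −2.11. Cmbl, which activates an ester prodrug (−1.72 and −1.90), Faah, which degrades fatty acid amides (−1.31 and −2.12), the Wnt deacylase Notum (−1.42 and −1.21) and the serum paraoxonase Pon1 (−1.01 and −0.89) fell in both as well. Bphl, a valacyclovir hydrolase, had −1.48 in intra-C livers, not called, and fell by 2.09 in intra-S livers.

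Of 18 neutral and acid lipid hydrolases, 2 were called lower in intra-C and 3 in intra-S livers, beside 2.38% and 3.95% of all genes. Lipc, the hepatic lipase, was at 246 and 263 CPM in control and 80.1 CPM or less in all 4 tumor-bearing livers, and fell with log2 fold changes of −1.70 and −1.85 (edgeR adjusted p = 0.00962 and 0.00668). Mgll, the monoacylglycerol lipase, fell with −1.43 and −2.08. Lipg, the endothelial lipase, fell by 3.55 in intra-S livers, from 11.6 and 10.4 CPM in control to 1.05 and 0.834. The main cytosolic triacylglycerol lipase Pnpla2 had log2 fold changes of 0.47 and 0.86, neither called. The intra-S value rested on liver 1, at 159.7 CPM, since liver 2, at 39.7 CPM, was below both control livers (58.1 and 51.7).

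Of 17 genes of lipid droplets and VLDL assembly, the steps that Ces1d supplies, 1 was called lower and 1 higher in intra-C livers and 1 lower and 0 higher in intra-S livers, with medians of −0.08 and −0.04. Cidea, which the list also holds, is left out of these counts because it was at 0 in both control livers. Over all genes, 2.38% were called lower and 4.92% higher in intra-C and 3.95% and 6.78% in intra-S livers. Dgat2, which makes triacylglycerol, was called lower in both (−1.31 and −1.36). Apob, the structural protein of VLDL, was at 3074 and 3197 CPM in control livers and rose to 6125 and 6391 in intra-C livers (log2 fold change 1.00, edgeR adjusted p = 0.0456), and was at 3689 and 3159 CPM in intra-S livers. The Apob call was lost without TMM (0.74, edgeR adjusted p = 0.0833), with the replicate block (adjusted p = 0.0694), on the log2(TPM + 0.1) scale (limma adjusted p = 0.0502) and without any 1 of the 4 livers compared (edgeR adjusted p = 0.226 to 0.339). Cidea, a lipid droplet protein, had no count in either control liver, 71 and 20 in intra-C, and 85 and 134 in intra-S livers, so it passed the filter only through the tumor-bearing groups and no test is given for it. The VLDL transfer protein gene Mttp was not called (log2 fold changes 0.19 and −0.13).

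Of 19 listed transcription factors and IL-6 signaling genes, 2 were called lower and 3 higher in intra-C livers. In intra-S livers 2 were called lower and 2 higher. The shares of all genes were 2.38% lower and 4.92% higher in intra-C and 3.95% lower and 6.78% higher in intra-S livers. Nr1i3 (CAR), a nuclear receptor that induces drug-metabolizing genes, was at 203 and 134 CPM in control, 49.2 and 65.9 in intra-C, and 57.0 and 60.0 in intra-S livers, and fell in both (log2 fold changes −1.55 and −1.53). Ppara, the receptor for fatty acids, fell by 1.38 in intra-S livers and had a log2 fold change of −0.26 in intra-C livers, not called. Cebpa fell by 1.70 in intra-C livers (not called with the replicate block, edgeR adjusted p = 0.0587) and had −0.66 in intra-S livers, not called. Stat3, which carries the IL-6 signal, was at 66.9 and 62.3 CPM in control, 229 and 226 in intra-C, and 134 and 130 in intra-S livers. It rose in both, with log2 fold changes of 1.82 and 1.03 (the latter 0.75 and not called without TMM, edgeR adjusted p = 0.0537), and so did its target Socs3 (4.05 and 3.49). Il6st, the shared receptor subunit, rose by 2.24 in intra-C livers and had 0.94 in intra-S livers, not called. Hnf4a, a hepatocyte identity factor, was not called (0.80 and 0.32). No link between these genes and the carboxylesterases was tested.

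**Figure D5:**
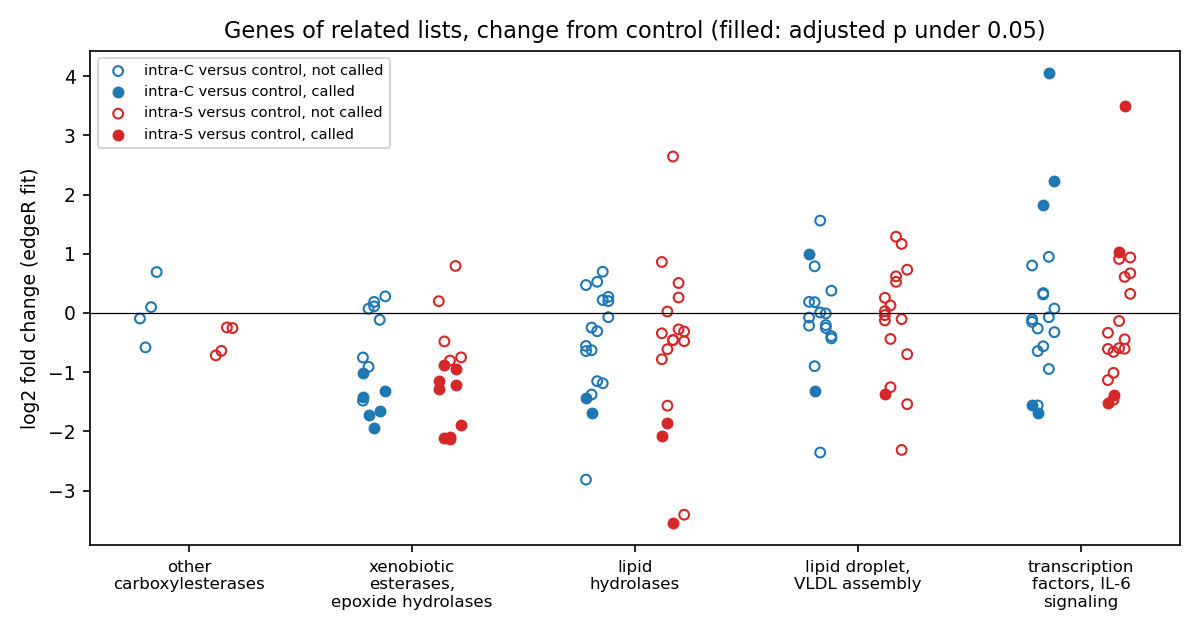
Fitted log2 fold change from control (edgeR) for the tested genes of 5 lists, 1 point per gene, in intra-C (blue) and intra-S (red) livers, with genes at an adjusted p under 0.05 filled. Ces2b, Ces2d-ps and Cidea are left out because a whole group was at 0. The filled points of the xenobiotic esterases and epoxide hydrolases are all below 0, and no point of the other carboxylesterases is filled.

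The genes outside the family whose log2 CPM over the 6 livers was most like that of Ces1f, among 7248 genes with a mean of at least 10 CPM, were Aldh3a2, Sult2a8, Cyp2a22, Nudt7 and Rnf5, with Pearson's r from 0.998 to 0.9996. The points are livers that fall into control and tumor-bearing sets, so r is a description of likeness. Aldh3a2, a fatty aldehyde dehydrogenase, was at 440 and 447 CPM in control, 82.7 and 109 in intra-C, and 30.9 and 82.1 in intra-S livers. Sult2a8, a liver sulfotransferase, was at 488 and 519, 15.4 and 26.6, and 2.57 and 13.6 CPM. Both had their lowest value in intra-S liver 1, as Ces1f did. Within the family, r with Ces1f was 0.991 for Ces3a, 0.989 for Ces1e, 0.973 for Ces1g, 0.951 for Ces1c and 0.950 for Ces3b, and it was 0.726 for Ces1d, 0.683 for Ces2a, 0.661 for Ces2c and 0.149 for Ces2e.

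Promoters from 250 bases before to 50 after the start were at hand from RefSeq (GRCm38.p6) for 7 of the 10 members, Ces1c, Ces1e, Ces1g, Ces2a, Ces2c, Ces2e and Ces3b. Letters of binding motifs were searched on both strands. The STAT-type TTCNNNGAA was in 0 of the 7 and in 8.3% of all 32851 promoters, the HNF4-type CAAAGTCCA in 0 and 0.475%, the HNF1-type GTTAAT in 1 (Ces3b) and 7.1%, and the nuclear receptor AGGTCA in 1 (Ces2a) and 16.3%. The 250 bases before the start of the latter members, which both fell in both comparisons, are shown with the matched letters in capitals, on the plus strand at chr8:104733753-104734002 for Ces2a and chr8:105083505-105083754 for Ces3b.
Ces2a: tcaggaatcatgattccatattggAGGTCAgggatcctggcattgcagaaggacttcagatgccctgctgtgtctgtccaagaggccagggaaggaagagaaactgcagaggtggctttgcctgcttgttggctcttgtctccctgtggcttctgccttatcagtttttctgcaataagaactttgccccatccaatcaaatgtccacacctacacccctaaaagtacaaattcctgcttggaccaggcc
Ces3b: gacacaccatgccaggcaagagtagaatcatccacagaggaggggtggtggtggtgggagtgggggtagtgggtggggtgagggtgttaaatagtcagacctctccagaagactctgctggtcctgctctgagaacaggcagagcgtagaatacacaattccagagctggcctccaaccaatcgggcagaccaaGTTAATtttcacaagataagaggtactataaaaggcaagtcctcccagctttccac
A match describes letters in this window and not a bound site. The 7 promoters held 0 to 4 CG pairs each, against a median of 7 over all promoters in the table.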

How the data were processed

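Poly(A) RNA of 6 livers was sequenced. The authors aligned reads to mm10 with HISAT2 2.1.0, counted uniquely aligned exonic reads with featureCounts (Subread 2.0.6) and deposited the raw counts per gene. The TPM values were computed by the authors from these counts and gene lengths. The annotation and strand setting are not given in the sources used here.

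The counts were tested here with edgeR 4.0.16 in R 4.3.3 (quasi-likelihood test, TMM, filterByExpr with a count minimum of 10, 1 fit over all 6 livers, Benjamini-Hochberg adjustment over 16370 genes, threshold 0.05). The standard error is the log2 fold change divided by the root of the F statistic. Intervals are at a nominal 95% from this error by the normal quantile. They are narrower than the F test would give, so they overstate the precision. CPM for correlations used a prior count of 2. The fit was tested on simulated data. The members and lists were chosen with earlier results of these data known. Named genes are the 10 members, called genes of each list (at most 6 by fold change, with other list genes as context chosen after their values were seen) and the 5 genes most like Ces1f. Hepatocyte, blood and other cell type markers were summed per liver. With 2 livers in each group, permuting labels cannot reach the threshold. Floors cover counting error only, as the reads carry no molecular identifiers. Alternatives are given in the closing section.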

Additional observations from a re-analysis of the deposited data

How the results depend on the processing

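The counts below are members called lower, of 9 against control and of 10, Ces1f included, between tumor-bearing groups. In intra-C versus control the 4 calls became 8 with DESeq2, 7 with no filter, 9 with only the compared groups in the fit, 8 without TMM and 0 at adjusted p under 0.01, where 5.15% of all genes (DESeq2), 395 of 20140 genes (no filter), 14.2% (compared groups), 4.89% (no TMM) and 0.11% (0.01) were called lower (2.38% in the reported fit), and ranged from 0 to 9 with 1 liver left out. In intra-S versus control the 6 calls became 2 with only the compared groups, 2 at 0.01, 8 with DESeq2, 7 without TMM and 8 on log2(TPM + 1) (0.734%, 0.33%, 6.9%, 6.81% and 9.49% of all genes, 3.95% in the reported fit), and ranged from 0 to 8 with 1 liver left out. In intra-S versus intra-C the count was 2 with DESeq2 and ranged from 0 to 5 with 1 liver left out. A lone liver was assumed to vary like the others. The replicate numbers share no stated litter or day, and deviations of same-numbered livers correlated at −0.03, 0.08 and 0.04. With the replicate block the counts were 6, 5 and 0 (1.58%, 3.38% and 0% of all genes). Without TMM 3.48% and 5.12% of all genes were called higher and 4.89% and 6.81% lower, the median of all genes moved to −0.25 and −0.23 and that of the members to −2.58 and −2.51. The family's share without the 100 most abundant and mitochondrial genes was 1.26%, 0.554% and 0.473%, and its TPM share in intra-C was 0.269%. The share of all counts ranged from 0.684% to 0.764%, 0.244% to 0.249% and 0.189% to 0.215% with 1 liver left out. The cause of these shifts was not tested. Values that changed sign were Ces2e in intra-S versus control, 0.13 without control liver 1 and 0.16 without intra-S liver 2, and Ces1d in intra-S versus intra-C, −0.06 without intra-C liver 1 and from −0.63 (without intra-S liver 1) to 0.81 (without intra-S liver 2). Among 971 values of single genes, 714 were taken as unchanged, 199 lost and 53 gained the call. Unchanged means the same direction and side of the threshold. For Ces1f against control, which has no test, it means a move of less than 1 standard error (16 values in intra-C and 15 in intra-S). Cidea, for which no test is given, is also among the 971. Ces2c in intra-C livers had 4 and 5 counts, which limits its fold.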
